A study of Fukomys damarensis and Heterocephalus glaber and Mus musculus with 160 samples.

Results

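The shape of liver H3K4me1 peaks was compared across 4 rodents: the naked mole-rat (NMR, Heterocephalus glaber), the Damaraland mole-rat (DMR, Fukomys damarensis), the guinea pig and the mouse (C57BL/6J). The members are the 17 peak lists whose labels give liver and H3K4me1, out of 160 samples in all: 5 naked mole-rats, 5 Damaraland mole-rats, 3 guinea pigs and 4 mice. Each list comes from 1 library of 1 wild-type adult animal. Naked mole-rats were 13 to 17 months old, Damaraland mole-rats 36 or 48 months by the labels' estimate, guinea pigs 2.3 months and mice 2 months. All were male but the Damaraland mole-rat DMR6, which was female. Chromatin was immunoprecipitated with the antibody ab8895, and the recovered DNA was sequenced (ChIP-seq). Species, age, genome assembly and the makeup of the lists change together here, so that their parts in a difference between species cannot be told apart.

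H3K4me1 is histone H3 with a single methyl group on lysine 4. It covers enhancers, both those in use and those that are primed but silent, and it also lies on the flanks of promoters, whose centres carry the trimethylated form H3K4me3. Active enhancers and promoters carry H3K27ac in addition. In liver, whose main cell is the hepatocyte, the mark forms both narrow sites and long domains around highly used genes. A bulk tissue holds several cell types, and a site used in few cells cannot be told apart from a weakly marked one.

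The lists held between 86486 and 180145 peaks, 2261708 in all, and no list held overlapping peaks. Read depth is not in the lists. Each of the 17 lists overlapped best with another liver H3K4me1 list of its own species, by the share of covered bases in common (Jaccard index). In 16 of the 17 every list of the own group also ranked above all lists of other marks or of heart. The exception was mouse 85921, whose Jaccard index was 0.355 with mouse 85924 and 0.373 with the H3K27ac list of its own liver. Library numbers in the labels begin with do or vl. The 4 vl libraries (NMR30, NMR31, DMR3 and DMR6) had a shortest gap between peaks of 75 to 77 bases, against 51 bases in all 13 do libraries. NMR30 stood apart in its shortest peaks and mouse 85924 in several measures given below, so that results resting on them are also given without them. The part of the library series in any difference was not tested.

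Naked mole-rat peaks were the narrowest and guinea pig peaks the widest by the mean over animals. Median width was 402, 443, 552, 411 and 425 bases in the naked mole-rats NMR30, NMR31, NMR32, NMR34 and NMR35. In the Damaraland mole-rats DMR1, DMR2, DMR3, DMR4 and DMR6 it was 580, 629, 428, 565 and 460 bases. In guinea pigs 7, 8 and 9 it was 660, 655 and 596.5 bases, above every animal of the other species but DMR2. In mice 85920, 85921, 85923 and 85924 it was 513, 578, 555 and 456 bases. The means were 447 ± 60.9 (SD, n = 5), 532 ± 84.9 (n = 5), 637 ± 35.3 (n = 3) and 526 ± 53.6 bases (n = 4). Naked mole-rats and guinea pigs did not overlap, with a difference of -0.52 in log2 median width, that is 1.44 times wider peaks in guinea pigs. The adjusted p was 0.0765 by a two-sided exact permutation test over animals, and no width difference passed the threshold of 0.05 after Benjamini-Hochberg adjustment.

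The same order ran through the long peaks. Peaks over 2000 bases made up 1.68 to 5.16% of the naked mole-rat lists, 1.84 to 9.54% of the Damaraland mole-rat lists, 6.80 to 10.7% of the guinea pig lists and 3.5 to 5.21% of the mouse lists. These few peaks held 24.9 to 36.1% of all covered bases in guinea pigs and 8.00 to 20.2% in naked mole-rats, and the 2 ranges did not overlap. The widest single peak measured 50542 bases, in guinea pig 7, and no naked mole-rat peak passed 19920 bases.

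The lower end of the widths differed from list to list. The shortest peak measured 214 to 294 bases in naked mole-rats, 242 to 290 in Damaraland mole-rats, 282 to 289 in guinea pigs and 253 to 282 in mice. In NMR30 32.9% of peaks had exactly the shortest width, against 3.75 to 12.6% in the other 16 lists. Dividing each median by the shortest width left guinea pigs above naked mole-rats without overlap, by 0.33 in log2. Guinea pigs had 2.06 to 2.34 by this measure, NMR30 1.37 and the other naked mole-rats 1.86 to 1.92. The value of NMR30 thus enlarged the difference. With the lists brought to a common floor, by joining peaks under 77 bases apart and keeping peaks of 294 bases or more, median width was 402 to 622 bases in naked mole-rats and 651 to 737 bases in guinea pigs, a log2 difference of -0.38. Without NMR30 the naked mole-rat range was 553 to 622 bases and the difference -0.27. This floor was chosen after seeing the data. Within do libraries alone, naked mole-rats had medians of 411 to 552 bases and Damaraland mole-rats 565 to 629 bases, while the vl medians were 402 and 443 against 428 and 460 bases.

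**Figure D1:**
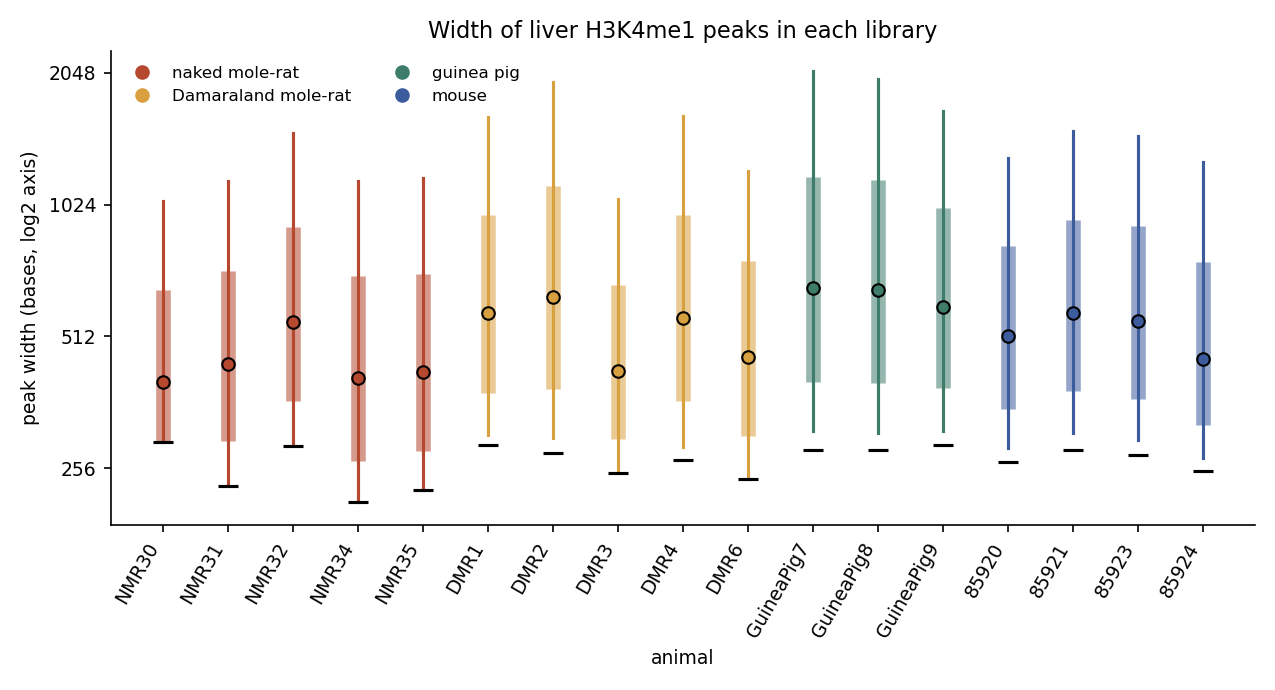
Width of liver H3K4me1 peaks in each of the 17 libraries, in bases on a log2 axis. Points are medians, thick bars run from the 25th to the 75th and thin lines from the 10th to the 90th percentile of peaks, and black dashes are the shortest peak. Guinea pig medians sit between 596.5 and 660 bases, and naked mole-rat medians between 402 and 552 bases.

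Fold enrichment, the height of a peak over its local background, differed less than width. Median fold was 5.32, 5.12, 5.12, 5.12 and 5.31 in the naked mole-rats, a narrow range. It was 4.86, 4.32, 4.95, 5.01 and 4.89 in the Damaraland mole-rats, all 5 below every naked mole-rat. It was 5.16, 4.56 and 4.80 in guinea pigs and 5.16, 5.00, 5.29 and 6.51 in mice, where 85924 stood above the other 3. Naked mole-rats exceeded Damaraland mole-rats by 0.12 in log2 (1.08 times), with an adjusted p of 0.0765 by the exact permutation test. Damaraland mole-rats were lower than mice by a log2 difference of -0.19, and by -0.10 without mouse 85924 (adjusted p = 0.0765 and 0.187, exact permutation test).

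Wide peaks were also the high ones in every library. Spearman's rho between width and fold, taken across the peaks of a library as a description, ran from 0.570 to 0.711. In naked mole-rats median fold was 4.28 to 4.65 in peaks under 500 bases and 9.69 to 11.2 in peaks over 2000 bases. In guinea pigs the same 2 classes had 3.65 to 4.11 and 7.75 to 9.40. At a given width class, naked mole-rat medians lay above guinea pig medians, in all 5 against all 3 animals and each of 4 width classes. In peaks of 500 to 1000 bases, the 1 class that was tested, the difference was 0.30 in log2 (adjusted p = 0.107, exact permutation test). The view over all 4 classes was added after seeing the data. Mouse 85924 reached 16.0 over 2000 bases, against 8.24 to 8.79 in the other 3 mice.

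Neighbouring peaks lay closest in the mole-rats, by the mean, when all peaks were used. The median gap from the end of a peak to the start of the next was 2092, 1322, 1707, 939 and 1085 bases in the naked mole-rats. It was 1411, 1298, 1585, 1212 and 1393 bases in the Damaraland mole-rats, 1731, 1710 and 1724 bases in guinea pigs and 1818.5, 2036, 1814 and 1798.5 bases in mice. Every Damaraland mole-rat was below every guinea pig and every mouse, and the guinea pigs were all below the mice. The naked mole-rats spread over 939 to 2092 bases, and their overlap with guinea pigs and mice came from NMR30 alone. Without NMR30 their longest median gap was 1707 bases, below every guinea pig and mouse, and the log2 differences to those species were -0.48 and -0.60, against -0.33 and -0.45 with it. The adjusted p without NMR30 was 0.114 and 0.0952 by the exact permutation test. The difference between Damaraland mole-rats and mice was -0.44 in log2, with an adjusted p of 0.0765 by the exact permutation test.

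The place of the mouse in this order depended on how many peaks were compared, and mice had the fewest peaks. Among the 80000 peaks of each list with the smallest p-value, median gaps were 2601 to 3676 bases in naked mole-rats, 2537 to 3394 in Damaraland mole-rats, 3261.5 to 3780 in guinea pigs and 2062 to 2710 in mice. At this number mouse gaps were the shortest by the mean, and the differences to mice turned to 0.35, 0.36 and 0.59 in log2 for naked mole-rats, Damaraland mole-rats and guinea pigs (adjusted p = 0.159, 0.136 and 0.136, exact permutation test). Among the top 40000 the differences of the mole-rats to mice were -0.052 and 0.0092. Among the top 10000 both mole-rats again had shorter gaps than mice by the mean, with differences of -0.62 and -0.38 (adjusted p = 0.0952 for each, exact permutation test). Guinea pig gaps were the longest by the mean at each of these 3 numbers, by 0.59, 0.39 and 0.28 over mice.

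Median width among the top 80000 peaks was 596 to 769 bases in naked mole-rats, 548 to 1092 in Damaraland mole-rats, 788 to 1020 in guinea pigs and 537 to 627 in mice. Guinea pigs exceeded mice by 0.66 in log2 without overlap, and naked mole-rats exceeded mice by 0.17, having been below them over all peaks.

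Peaks clustered in every species. Gaps under 500 bases made up 27.5 to 39.8% of all gaps in the 17 lists, and gaps over 10000 bases 20.0 to 28.7%. Runs of 4 or more peaks, each under 1000 bases from the next, held 21.0 to 32.7% of peaks in naked mole-rats, 24.4 to 28.0% in Damaraland mole-rats, 21.4 to 21.9% in guinea pigs and 20.1 to 24.3% in mice. The longest run held 35 peaks, in NMR30 and in mouse 85920. Of the naked mole-rat peaks, 71.2 to 71.7% lay on scaffolds on which a peak reached 1 Mb, against 93.0% or more in each list of the other species, and a gap is measured only within a scaffold.

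The summit, the highest point of a peak, lay nearer to the middle in mice when all peaks were used. Offset was measured as the distance of the summit from the middle of the peak on a scale from 0 in the middle to 1 at an edge. The median was 0.303, 0.298, 0.291, 0.294 and 0.297 in naked mole-rats and 0.292, 0.292, 0.292, 0.298 and 0.295 in Damaraland mole-rats. It was 0.289, 0.298 and 0.290 in guinea pigs. All 4 mice were lower, at 0.278, 0.283, 0.279 and 0.221. Naked mole-rats exceeded mice by 0.0316 and Damaraland mole-rats by 0.0289, both with an adjusted p of 0.0765 by the exact permutation test. Without mouse 85924 these differences were 0.0168 and 0.0141, still without overlap, with an adjusted p of 0.107 by the same exact test. Among the top 80000 peaks the differences to mice were 0.0173 for naked mole-rats, 0.0253 for Damaraland mole-rats and 0.0270 for guinea pigs (adjusted p = 0.400, 0.159 and 0.316, exact permutation test), and the ranges of both mole-rats and guinea pigs overlapped that of mice. In peaks of 500 to 1000 bases all 3 guinea pigs lay nearer to the middle than all 4 mice, by -0.0171. The offset was larger in wide peaks, at 0.366 to 0.434 over 2000 bases against 0.159 to 0.310 under 500 bases in the 17 lists.

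**Figure D2:**
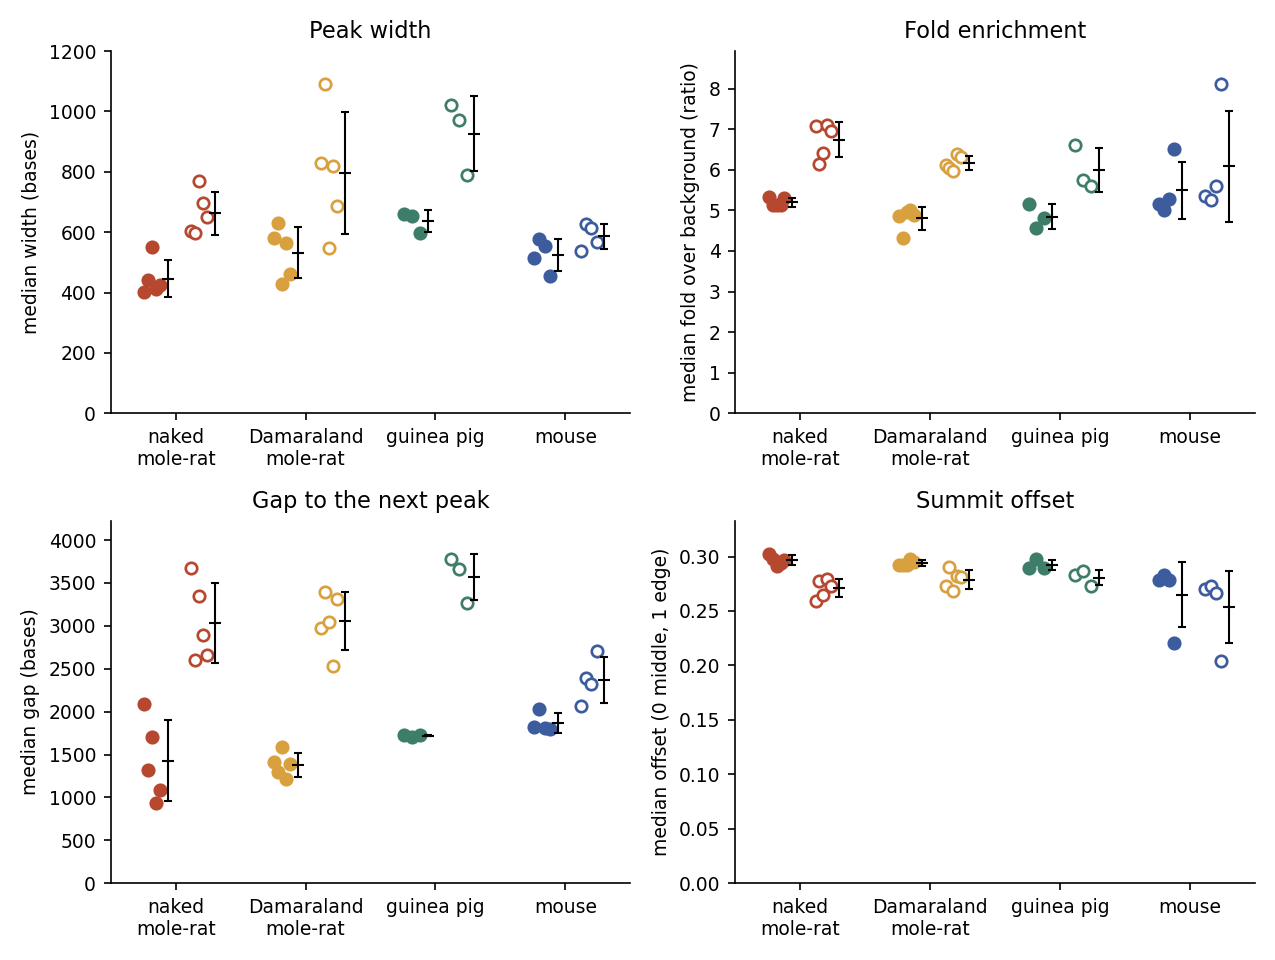
Median width (bases), fold (ratio over background), gap to the next peak (bases) and summit offset (0 in the middle of a peak, 1 at an edge) per animal. Filled points use all peaks, open points the 80000 peaks of each list with the smallest p-value, and bars show the mean ± SD over 5 naked mole-rats, 5 Damaraland mole-rats, 3 guinea pigs and 4 mice. The mouse gaps are the longest over all peaks by the mean, and the shortest among the top 80000.

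In all, 30 species differences were tested, 5 measures over 6 pairs of species. After adjustment 0 of 30 passed, and 10 had an unadjusted exact permutation p under the threshold. The smallest p this design allows is 0.00794 for 5 against 5 or 4 animals, 0.0179 for 5 against 3 and 0.0286 for 4 against 3, and the lowest adjusted p was 0.0765. Taking the mean over peaks in place of the median, 5 passed, each with an adjusted p of 0.0476 by the exact permutation test. They included the gaps of both mole-rats below mice, by -1.0 and -0.94 in log2, and both offsets above mice, by 0.0324 and 0.0271. The other was the width ratio to H3K27ac of naked mole-rats above mice, by 0.69 in log2. These values include mouse 85924, whose mean offset was 0.263, against 0.310 to 0.316 in the other mice. Mean offsets were 0.327 to 0.344 in naked mole-rats and 0.324 to 0.331 in Damaraland mole-rats. Means over peaks were not tested without mouse 85924. Mean gaps used all peaks, of which mice had 95664 by the mean, against 152568 and 145623 in naked and Damaraland mole-rats. No gap crosses a scaffold end, and mole-rat peaks lay on 1718 to 3625 scaffolds, against 32 to 45 in mice. The median gap differences to mice were 0.35 and 0.36 among the top 80000 peaks. They were -0.052 and 0.0092 among the top 40000, and -0.62 and -0.38 among the top 10000. Mean gaps at equal numbers were not tested.

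Each animal's H3K4me1 width was set against the width of its own liver H3K27ac peaks. The ratio of medians was 1.03, 1.14, 1.64, 1.36 and 1.33 in naked mole-rats, 1.48, 1.16, 0.975, 1.43 and 1.00 in Damaraland mole-rats and 1.1, 1.12 and 1.04 in guinea pigs. In mice it was 0.888, 0.909, 0.884 and 0.739, so that H3K4me1 peaks were narrower than H3K27ac peaks in 4 of 4 mice and wider in 12 of 13 animals of the other species. Over all peaks no mouse overlapped another species. The log2 differences to mice were 0.59 for naked mole-rats, 0.49 for Damaraland mole-rats and 0.35 for guinea pigs (adjusted p = 0.0765, 0.0893 and 0.0952, exact permutation test). Leaving out 1 animal at a time, mouse 85924 among them, these differences were at least 0.50, 0.41 and 0.28. The shortest H3K27ac peak was 166 to 230 bases in mole-rats and 250 to 271 bases in guinea pigs and mice. With each median divided by the shortest width of its list, ratios were 0.596 to 1.11 in naked and 0.718 to 0.964 in Damaraland mole-rats. Guinea pigs then had 0.935 to 1.02 and mice 0.777 to 0.873. Damaraland mole-rats overlapped mice by this measure, and NMR30, at 0.596, lay below every mouse. At the common floor the ratios became 0.688 to 1.04 in naked mole-rats, 0.857 to 1.02 in Damaraland mole-rats, 0.912 to 1.00 in guinea pigs and 0.746 to 0.850 in mice, and the differences to mice 0.17, 0.22 and 0.24. The value of 0.688 was that of NMR30. Without it naked mole-rats had 0.939 to 1.04 and a difference of 0.28 to mice (adjusted p = 0.0952, exact permutation test). Among the top 80000 H3K4me1 and top 50000 H3K27ac peaks, the ratio was above 1 in 6 of 13 animals other than mice, and below 1 in all 3 guinea pigs, at 0.679 to 0.872 against 0.740 to 0.811 in mice. The difference of guinea pigs to mice was then -0.00040, and those of naked and Damaraland mole-rats 0.40 and 0.33, of which the second overlapped. Among the top 40000 of both marks, guinea pigs (0.797 to 1.03) and Damaraland mole-rats (0.929 to 1.26) overlapped mice (0.880 to 0.959). Naked mole-rats, at 0.972 to 1.52, did not. Among the top 10000 of both, mice had 0.623 to 0.643 and overlapped no other species. Guinea pigs there had 0.741 to 0.960, Damaraland mole-rats 0.730 to 1.05 and naked mole-rats 0.799 to 1.25.

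Guinea pig libraries, and the mouse libraries other than 85924, overlapped each other most when all peaks were used. A peak was found again when a peak of the other library covered 50% of the shorter of both. The share found again, averaged over both directions, was 71.2 to 72.5% in the 3 guinea pig pairs. It was 53.9 to 65.4% in the 10 naked mole-rat pairs, 59.4 to 69.7% in the 10 Damaraland mole-rat pairs and 55.0 to 73.1% in the 6 mouse pairs. The 3 mouse pairs without 85924 had 72.3 to 73.1%, and the 3 with it 55.0 to 57.8%. Between do libraries naked mole-rats had 64.5 to 65.4% and Damaraland mole-rats 67.9 to 69.7%. Pairs that held NMR30 had 53.9 to 55.1%. These shares have no test, since pairs share libraries and none spans 2 species.

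By another rule, peaks were matched when the summit of a peak of the first library of a pair lay inside a peak of the second. This rule itself limits the distance between both summits, whose median was 100 to 171 bases over the 29 pairs. Spearman's rho of fold across peaks matched in this way was 0.237 to 0.440, and of width 0.271 to 0.595. These values are descriptions of peaks within pairs. Naked mole-rat peaks formed 220509 merged regions, of which 52097 held a peak in all 5 animals. For Damaraland mole-rats these counts were 188326 and 51854 (5 animals), for guinea pigs 145529 and 67268 (3 animals) and for mice 136476 and 38724 (4 animals). The numbers of animals differ, so the shares are not set against each other.

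**Figure D3:**
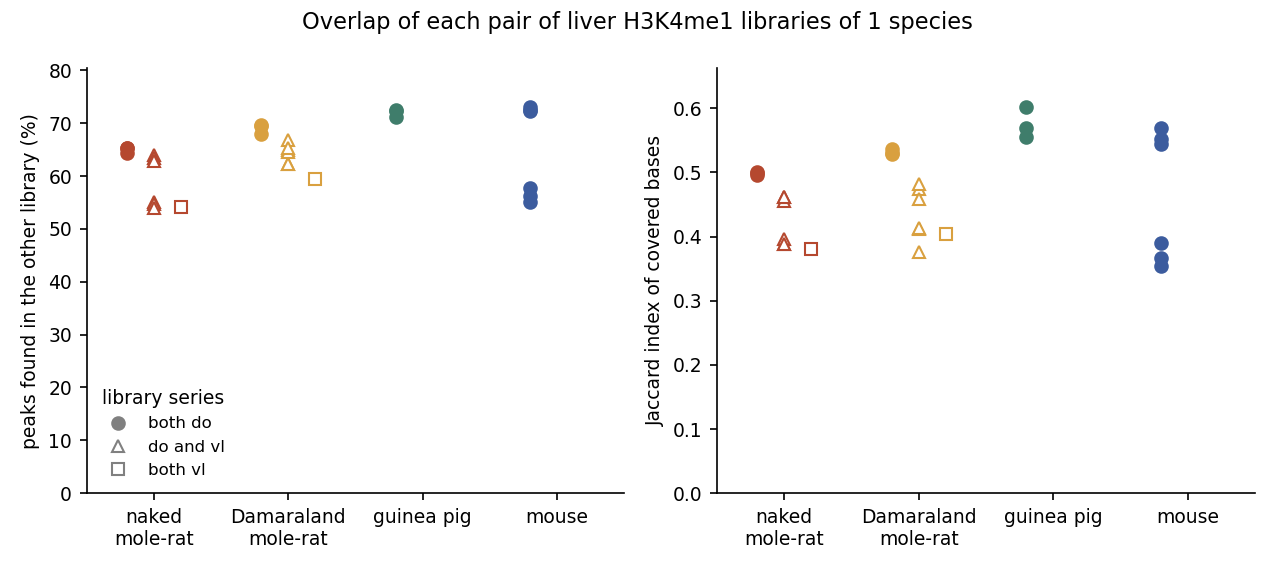
Share of peaks found in the other library (left, percent) and Jaccard index of covered bases (right) for each of the 29 pairs of liver H3K4me1 libraries within a species, by library series. The 3 low mouse pairs, at 55.0 to 57.8%, are those with mouse 85924, and naked mole-rat pairs across series reach down to 53.9%.

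Peaks found in every other animal of the species were wide and high, and peaks found in none were narrow. In the 17 libraries, median width of the first was 2.11 to 3.82 times that of the second, and median fold 1.32 to 2.10 times. A wider peak has more room to meet another, so that width is not independent of this split. Peaks found in no other library made up 36.2% of mouse 85924 and 27% of NMR30, against 7.81 to 23.3% of the other 15 lists. In NMR30 the median width of these private peaks was 294 bases, its shortest width.

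H3K4me1 peaks that also carried H3K27ac were wider and higher than those that did not, in all 4 species. A peak counted as carrying the mark when its summit lay in an H3K27ac peak of the same liver, so that its own width did not set the call. Such peaks made up 21.3 to 37.2% of the naked mole-rat lists, 27.6 to 38.7% of the Damaraland mole-rat lists, 39.9 to 46.4% of the guinea pig lists and 36.4 to 48.1% of the mouse lists. With H3K27ac, median width was 593, 566, 744, 611 and 578 bases in the naked mole-rats, and without it 360, 390, 494, 374 and 368 bases. In Damaraland mole-rats the 2 classes had 780, 954, 545, 783 and 637 bases against 497, 519, 388, 472 and 414 bases. In guinea pigs they had 892, 928 and 732 against 543, 537 and 511 bases, and in mice 616, 728, 693 and 566 against 440, 481.5, 471 and 409 bases. The class with H3K27ac was the wider one in each animal, and within each species the 2 classes did not overlap.

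Over the 17 animals the within-animal difference was 0.63 ± 0.12 in log2 width (SD), or 1.55 times, and 0.39 ± 0.11 in log2 fold, or 1.31 times. Both were positive in 17 of 17 animals, with an adjusted p of 3.05e-05 by a two-sided exact sign-flip permutation test. The unadjusted 1.53e-05 is the smallest p this test can give. At equal numbers of top peaks the differences were 0.41 and 0.25, with the same adjusted p by the exact permutation test. The mean width difference was 0.64 in naked mole-rats, 0.67 in Damaraland mole-rats, 0.67 in guinea pigs and 0.53 in mice. None of 12 differences between species in the size of this effect passed the exact permutation test (lowest adjusted p = 0.524; 0 of 12 unadjusted p under the threshold), a comparison added after seeing the data.

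**Figure D4:**
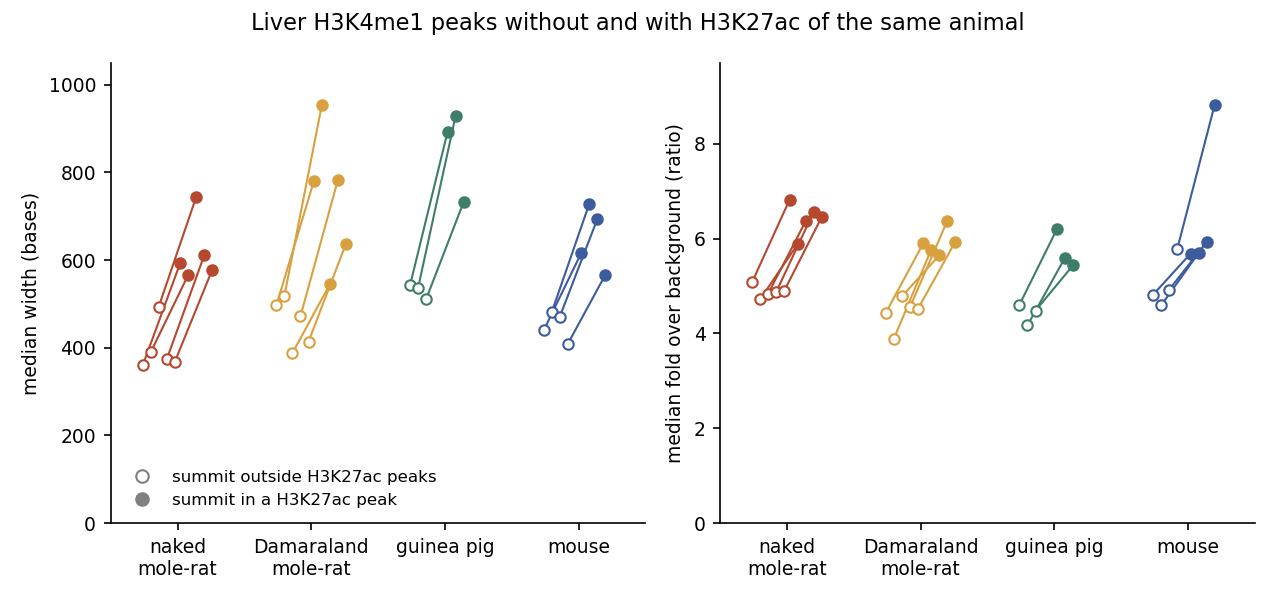
Median width (left, bases) and median fold (right, ratio over background) of H3K4me1 peaks whose summit lay outside (open) or inside (filled) an H3K27ac peak of the same animal, joined by a line per animal. Every line rises, in 17 of 17 animals.

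The mark of promoters gave a smaller difference. H3K4me3 lists of the same liver existed for 14 of the animals, 5 naked mole-rats, 2 Damaraland mole-rats, 3 guinea pigs and 4 mice. The share of H3K4me1 summits inside an H3K4me3 peak was 6.02 to 9.04% in naked mole-rats, 4.06 and 10.3% in Damaraland mole-rats, 2.33 to 4.32% in guinea pigs and 14.2 to 17.9% in mice. Fold was higher by 0.16 ± 0.12 in log2 in 14 of 14 animals (adjusted p = 0.000163, exact sign-flip permutation test). Width was higher by 0.18 ± 0.20 in log2 in 12 of 14, all but guinea pigs 8 and 9 (adjusted p = 0.00244, same exact test). The mean ratio of width with over without H3K4me3 was largest in mice, at 1.34. It was 1.09 in naked mole-rats, 1.08 in Damaraland mole-rats and 1.01 in guinea pigs. Mouse 85924 had 1.56 and the other mice 1.21 to 1.32, all above NMR34, the highest of the other animals at 1.17. Differences between species in this ratio were not tested. At equal numbers of top peaks the width difference was 0.014 (adjusted p = 0.831, exact test), so that it held over the full lists and not over their strongest peaks.

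H3K4me1 summits lay beside strong promoters more often than on them. Around the 10000 strongest H3K4me3 summits of each animal, H3K4me1 summits were counted by distance on both sides in bins of 250 bases, per 100 H3K4me3 summits. Within 250 bases there were 5.04, 4.08, 3.96, 7.35 and 4.87 in the naked mole-rats, 2.84 and 4.98 in the Damaraland mole-rats DMR1 and DMR4, 3.81, 2.47 and 2.73 in the guinea pigs, and 10.3, 8.86 and 10.7 in mice 85920, 85921 and 85923. Far from the promoter, at 4750 to 5000 bases, the 14 libraries had 6.33 to 10.7. In mole-rats and guinea pigs this far count was 8.26 to 10.7, above the count within 250 bases in each animal. In mice 85920, 85921 and 85923 it was 6.33, 6.49 and 6.66, below the count within 250 bases. The fullest bin began at 500 or 750 bases in all 14 and held 24.6 to 39.1. An H3K4me1 summit lay within 5000 bases of 91.8 to 98.9% of these H3K4me3 summits. Among those, the nearest lay at a median of 641 to 882 bases in 13 libraries.

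Mouse 85924 departed from this pattern. It had 27.9 H3K4me1 summits within 250 bases per 100 H3K4me3 summits. Its median nearest distance, taken in the same way, was 438 bases. Of its strongest H3K4me3 summits 51.2% lay inside an H3K4me1 peak, against 13.6 to 16.6% in the other 3 mice and 3.75 to 9.17% in the other species. Its best overlap was nonetheless with a liver H3K4me1 list, at a Jaccard index of 0.390 with mouse 85923, and its best match among other lists was 0.297, with the liver H3K27ac list of 85921. What sets this library apart was not tested.

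**Figure D5:**
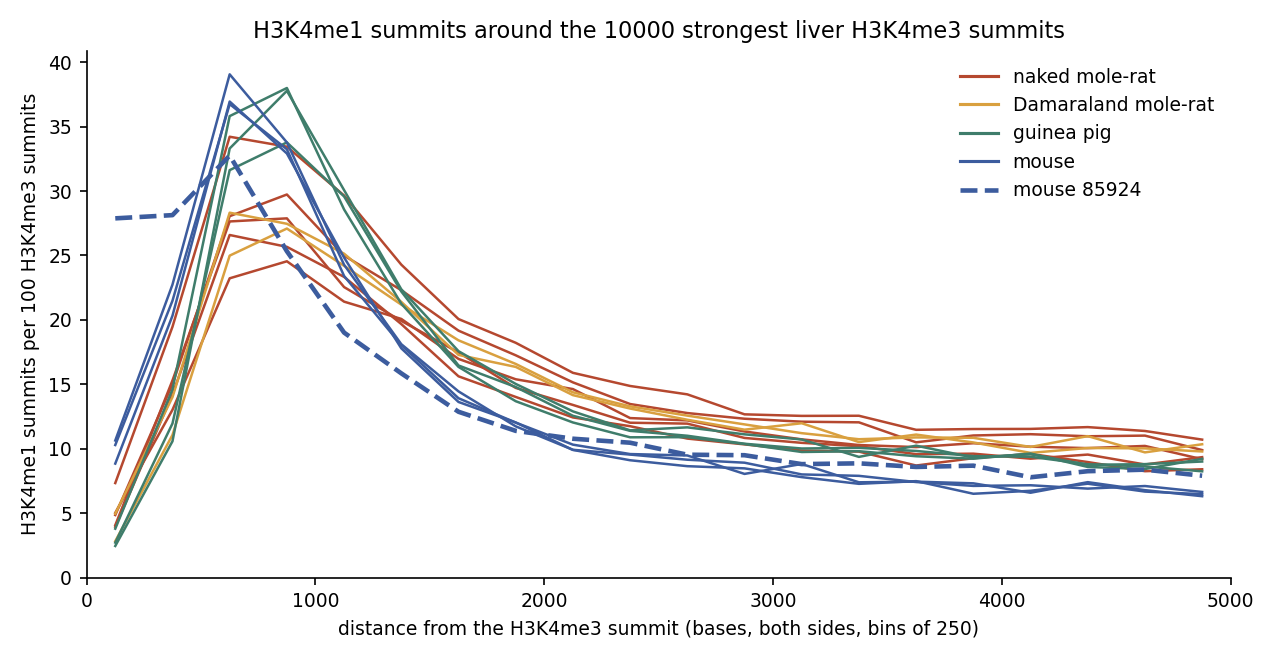
Number of H3K4me1 summits per 100 H3K4me3 summits in bins of 250 bases by distance from the 10000 strongest H3K4me3 summits of the same liver, both sides counted, 1 line per animal (14 animals). The lines start at 2.47 to 10.7 and peak between 500 and 1000 bases, but mouse 85924 (dashed) starts at 27.9.

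Around the strongest H3K27ac summits, H3K4me1 lay both on the centre and beside it. Within 250 bases there were 13.0 to 27.1 H3K4me1 summits per 100 in all libraries but mouse 85924, which had 34.9. The fullest bin was 750 to 1000 bases in 16 of 17 libraries, with 28.4 to 37.5. Mouse 85924 was the exception, with its fullest bin at 0 to 250 bases. Of the strongest H3K27ac summits, 22.0 to 27.6% lay inside an H3K4me1 peak in guinea pigs and 24.9 to 38.0% in naked mole-rats. The share was 36.3 to 50.7% in Damaraland mole-rats. It was 52.1% in mouse 85924 and 37.2 to 38.9% in the other mice.

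The highest and widest regions were taken from regions with a peak in every animal of the species, by mean highest fold or mean widest peak, and as they were chosen on these values they have no test. The highest regions were not of 1 form: they spanned 1801 and 5645 bases in naked mole-rats, 6803 and 10129 in Damaraland mole-rats, 8885 and 31675 in guinea pigs and 1986 and 2842 in mice, and the guinea pig region of 31675 bases was also the second widest by widest peak. No gene is assigned to them, since positions of genes on these assemblies were not used here. In the naked mole-rat assembly HetGla_1.0 the highest was JH168132.1:521258-526902, with highest folds of 25.6, 13.3, 37.1, 25 and 20.1 in NMR30, NMR31, NMR32, NMR34 and NMR35 (24.2 ± 8.73, SD, n = 5). The next, JH165993.1:54958-56758, was a compact form: 1 peak of 1625 to 1801 bases in each of the 5 animals at 23.4 ± 4.86 fold, without H3K4me3 in any of 5 lists, with H3K27ac in 5 of 5, and with H3K4me1 in 3 of 3 hearts.

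In mice (GRCm38) the highest region was 7:16027894-16029879, also 1 peak per animal, of 1457 to 1876 bases and folds of 18.0, 13.1, 19.2 and 35.2. The second was 9:110688583-110691424, at 17.0, 11.6, 17.6 and 39.2 fold. Both lacked an H3K4me3 peak in 4 of 4 mice and had H3K27ac in 4 of 4, and in both the highest value was that of 85924.

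The widest regions were domains that the lists of a species split into different numbers of peaks. In guinea pigs (Cavpor3.0) DS562873.1:39840363-39890904 was a single peak of 50542 bases in guinea pig 7, while guinea pigs 8 and 9 gave 6 and 5 peaks there, the widest of 43354 and 32423 bases. In Damaraland mole-rats (DMR_v1.0) KN124375.1:2322660-2364444 held widest peaks of 38481, 38249, 28851, 22172 and 11603 bases in DMR1, DMR2, DMR3, DMR4 and DMR6, in 3, 3, 8, 6 and 13 pieces. In naked mole-rats JH170294.1:56454-76926 held widest peaks of 9199, 8187, 17683, 8844 and 16316 bases. In mice 2:27705852-27765123 held 24225, 22248, 21644 and 23246 bases, in 14, 13, 10 and 5 pieces, with no H3K4me3 peak in any of 4 livers, whereas the adjoining 2:27678970-27705793 had one in 4 of 4. Each of these domains carried H3K27ac in every liver list of its species.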

How the data were processed

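Peak lists of 17 liver H3K4me1 libraries, with the H3K27ac and H3K4me3 lists of the same animals, were analysed. The authors deposited 1 list per library, named with an input library, and called peaks with MACS2, per the submitters' processing notes; no label or header used here names an aligner or a version. In the deposited lists column 7 is the fold enrichment of a peak (ratio), columns 8 and 9 are -log10 p and -log10 q, and column 10 is the distance of the summit from the peak start. The assemblies HetGla_1.0, DMR_v1.0, Cavpor3.0 and GRCm38 are those in the deposited names, and coordinates are printed from 1. No sample was pooled, and read depth is unknown, so precision rests on the number of animals.

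Per library, medians over peaks of width, fold, gap and summit offset, and the ratio of median width to that of H3K27ac, were taken (Python 3.11.15, NumPy 2.4.6, pandas 2.3.3, SciPy 1.17.1). Species were compared over animals by two-sided exact permutation tests of log2 values (offset unlogged), with Benjamini-Hochberg adjustment over 30 tests. Peaks with and without another mark were compared by exact sign-flip permutation tests over animals, adjusted over 4 tests. Functions were tested on simulated data. Alternatives were the top 80000, 40000 and 10000 peaks by column 8, -log10 q of at least 4, scaffolds reaching 1 Mb, do libraries alone, means over peaks, other measures of width and gap, and each animal left out. The species comparisons, lists and rules were chosen with earlier results of these data known. Named regions were the 2 highest and 2 widest per species among regions with a peak in every list; those printed are a part of these 16.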

Additional observations from a re-analysis of the deposited data

Results flagged for a closer look

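In groups of 4 or 5 animals, a library was singled out when its gap to the nearest other value exceeded Dixon's 95% critical value for the range of the group. Of 38 groups tested over 14 quantities 8 were singled out, and chance alone gives about 1 in 20. The 3 guinea pigs are too few for this. Mouse 85924 accounted for 4 of the 8. Its median summit offset was 0.221, against 0.278 to 0.283 in the other 3 mice, and its width ratio to H3K27ac was 0.739, against 0.884 to 0.909. Its H3K4me1 peaks with H3K4me3 had 1.42 times the fold of those without, against 1.09 to 1.14 times. It had 27.9 H3K4me1 summits within 250 bases per 100 strong H3K4me3 summits, against 8.86 to 10.7.

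Mouse 85921 had a median gap of 2036 bases, against 1798.5 to 1818.5 in the other 3. Naked mole-rat NMR32 had a median width of 552 bases, against 402 to 443 in the other 4. In NMR30 32.9% of peaks had the shortest width, against 9.02 to 11.3%. Damaraland mole-rat DMR2 had a median fold of 4.32, against 4.86 to 5.01 in the other 4. The causes were not tested.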

How the results depend on the processing

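Between species no paired analysis was possible, because replicates are animals and the species share none. No list held overlapping peaks, so merging them was not run. With 3 to 5 animals a group, and lists without read depth, small differences were not detectable. Of 555 repeats of the 30 species differences 488 kept direction and side of the threshold, 62 turned in sign and 5 passed, all with means over peaks. That setting used all peaks of each list, whose numbers differ, and gave 2 passing gaps, 2 offsets and 1 width ratio, against 0 each. The adjusted values of the other settings were above 0.05. Values below are log2 differences, or offsets. The cause of each change was not tested.

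With the top 80000 peaks, naked mole-rats minus mice was 0.17 in width, 0.17 in fold and 0.35 in gap; Damaraland mole-rats minus mice was 0.043 in fold and 0.36 in gap; guinea pigs minus mice was 0.59 in gap and -0.00040 in width ratio. Damaraland mole-rats minus guinea pigs was 0.045 in fold and -0.0017 in offset, and naked mole-rats had offsets -0.0080 against Damaraland mole-rats and -0.0097 against guinea pigs. With the top 40000, naked mole-rats minus mice was 0.070 in width and 0.12 in fold, Damaraland mole-rats minus guinea pigs 0.028 in fold and -0.00021 in offset, and the gaps to mice were 0.0092 for Damaraland mole-rats and 0.39 for guinea pigs. Naked mole-rat offsets were then -0.0147 and -0.0149 against Damaraland mole-rats and guinea pigs. With the top 10000 they were -0.0190 and -0.0132, naked mole-rats minus mice was 0.11 in fold, Damaraland mole-rats minus guinea pigs 0.058 in fold, and guinea pigs minus mice 0.28 in gap.

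At -log10 q of 4 or more, fold was 0.011 for naked mole-rats minus mice and 0.034 for Damaraland mole-rats minus guinea pigs, the gap 0.083 for guinea pigs minus mice, and offsets -0.0019 and -0.0024 for naked and Damaraland mole-rats minus guinea pigs. In peaks of 500 to 1000 bases the same fold differences were 0.018 and 0.069, and the offset of guinea pigs minus mice was -0.0171. From summit to summit the gap of guinea pigs minus mice was 0.097. On scaffolds reaching 1 Mb the gap of naked minus Damaraland mole-rats was 0.018. Within do libraries their offset difference was -6.05e-05. With widths over the shortest peak, the ratios of naked and Damaraland mole-rats minus guinea pigs were -0.15 and -0.21.

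At the common floor, chosen after seeing the data, naked minus Damaraland mole-rats was 0.11 in gap and -0.044 in width ratio. Against guinea pigs naked mole-rats had -0.0038 in offset and -0.070 in ratio, and Damaraland mole-rats 0.030 in fold, -0.0068 in offset and -0.027 in ratio. With NMR30 also left out, naked mole-rats had 0.095 in gap against Damaraland mole-rats and -0.0067 in offset against guinea pigs, and the 3 Damaraland values stayed the same. Leaving out 1 animal at a time, sign turned in 4 differences: width of Damaraland mole-rats minus mice (-0.057 to 0.084), fold of naked mole-rats minus mice (-0.11 to 0.015, above 0 without 85924), fold of Damaraland mole-rats minus guinea pigs (-0.053 to 0.037) and gap of naked minus Damaraland mole-rats (-0.16 to 0.13).

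The median share of peaks found again was 63.1% in naked mole-rats and 65.1% in Damaraland mole-rats. It was 72.2% in guinea pigs (71.2 to 72.5% leaving out 1 guinea pig) and 65.0% in mice (56.3 to 72.6% leaving out 1 mouse). An overlap of 1 base gave 70.4, 71.9 and 77.7% in naked mole-rats, Damaraland mole-rats and guinea pigs. Libraries of the do series gave 69.6% in Damaraland mole-rats, and the top 80000 peaks 76.1% in guinea pigs. The width difference with H3K4me3 was 0.014 in the top 80000 peaks and 0.088 at -log10 q of 4 or more, neither passing the exact permutation test; 84 of the 86 repeats of the 4 within-animal differences kept direction and side of the threshold.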
